A study of Mus musculus with 6 samples.

Results

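The TGF-β family of secreted dimers was examined through 10 genes: the 5 ligand genes Tgfb1, Tgfb2, Tgfb3, Inhbb and Bmp4 and the 5 receptor genes Acvr1c, Tgfbr1, Tgfbr2, Bmpr1a and Bmpr2. They were chosen by gene symbol, as core members of the TGF-β, BMP and activin branches, and all 10 of 10 were among the 14861 genes of the table. The tissue was inguinal white fat, a subcutaneous depot of the groin, and poly(A) RNA of 3 AdIGF1RKO mice and 3 Flox littermates was sequenced. AdIGF1RKO mice carried a floxed Igf1r gene (B6;129-Igf1rtm2Arge/J) together with Cre recombinase driven by the adiponectin promoter (B6; FVB-Tg (Adipoq-Cre)1Evdr/J), so that deletion is directed to adipocytes while vascular, stromal and immune cells of the tissue keep the gene. Flox mice carried the floxed Igf1r gene and served as controls. Both groups were kept for 24 weeks on low-fat chow (10% of calories as fat) and, after a night without food, were anesthetized with Avertin. The labels used here give neither age nor sex. Whether members of the family differ between the fat of both genotypes is the question addressed here.

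Ligands of this family bind a pair of type II and a pair of type I serine/threonine kinase receptors, and the type I receptor then phosphorylates SMAD transcription factors. TGF-β and activin receptors act mainly through SMAD2 and SMAD3, and BMP receptors through SMAD1, SMAD5 and SMAD9, each together with SMAD4. In fat, TGF-β is known as a fibrogenic signal that restrains adipogenesis, BMP4 as a signal that commits progenitors to the adipocyte lineage, and activin B with its type I receptor ALK7, the product of Acvr1c, as a brake on lipolysis in mature adipocytes.

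Promoters are shown for Inhbb and Acvr1c, the pair whose ratio did not overlap between the groups (exact permutation p = 0.1, adjusted p = 0.5). How often ratios of other pairs of genes separate was not computed. The promoter of Bmp4 is shown because Bmp4 had the largest of the differences between the groups on the log2 scale, without passing the test. Each sequence is the 250 bases before the annotated start from RefSeq on build GRCm38.p6, read 5′ to 3′ on the minus strand, and capitals mark CG pairs. The intervals are chr1:119422249-119422498 for Inhbb, chr2:58357759-58358008 for Acvr1c and chr14:46390670-46390919 for Bmp4.
Inhbb: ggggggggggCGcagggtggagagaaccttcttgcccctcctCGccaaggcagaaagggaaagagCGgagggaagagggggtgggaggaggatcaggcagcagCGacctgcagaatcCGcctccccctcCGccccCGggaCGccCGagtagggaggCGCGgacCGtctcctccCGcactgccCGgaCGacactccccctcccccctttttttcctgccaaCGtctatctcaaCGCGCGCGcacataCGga
Acvr1c: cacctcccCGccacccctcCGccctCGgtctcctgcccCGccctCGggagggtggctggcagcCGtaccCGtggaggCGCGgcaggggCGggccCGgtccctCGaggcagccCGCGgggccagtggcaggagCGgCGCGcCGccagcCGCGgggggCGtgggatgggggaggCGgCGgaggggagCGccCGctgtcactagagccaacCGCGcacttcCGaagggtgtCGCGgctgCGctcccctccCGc
Bmp4: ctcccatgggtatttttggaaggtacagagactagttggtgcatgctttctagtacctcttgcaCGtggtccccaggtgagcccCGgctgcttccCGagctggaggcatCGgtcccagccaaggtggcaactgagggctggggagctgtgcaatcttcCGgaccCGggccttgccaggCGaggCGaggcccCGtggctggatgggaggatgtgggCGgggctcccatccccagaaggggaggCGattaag
In windows of 300 bases, from 250 before to 50 after the start, the observed to expected CG ratio was 0.741 for Inhbb, 0.833 for Acvr1c and 0.419 for Bmp4, against a median of 0.384 over all 32851 windows. RefSeq windows were found for 9 of the 10 genes. A second annotated start of Acvr1c had a ratio of 0.105. The motif CAGAC, searched on both strands as a core SMAD-binding element, was in the window of Tgfb2, Tgfbr2 and a second start of Tgfbr1, that is in 3 of 11 windows, and 49.6% of all windows hold it. The BMP-type element GGCGCC was in the windows of Bmpr1a, Bmpr2 and Tgfbr1, that is in 3 of 11 windows, and 11.9% of all windows hold it. These windows had 79.3%, 59.3% and 74.7% G and C bases, against a median of 52.7% over all windows. Tgfb2 alone had TATAAA, which 13.6% of all windows hold. Neither motif of the pathway was in the windows printed for Inhbb, Acvr1c and Bmp4.

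Library totals over the table ran from 60617147 to 70695527 reads, of which each of the 10 genes took from 196 to 5844. Levels are given as scaled CPM, that is reads divided by a median-ratio size factor and expressed per 1000000 reads of a library of average size. All 10 adipocyte markers were present and took 5.49% to 6.45% of the reads in AdIGF1RKO and 4.42% to 7.40% in Flox. Libraries differed most in skeletal muscle RNA. Its markers took 4.20% of the reads in AdIGF1RKO 3 and 11.4% in Flox 3, against 0.0357% and 0.237% in the other AdIGF1RKO libraries and 0.788% and 0.0840% in the other Flox libraries. Igf1r had 6.11, 5.27 and 4.85 scaled CPM in AdIGF1RKO, against 6.44, 6.47 and 5.86 in Flox, so the ranges of the targeted gene overlapped. Its log2 difference was -0.18 (standard error 0.12, 95% interval -0.48 to 0.12), and AdIGF1RKO was lower in 3 of 3 same-numbered pairs. The labels do not state that libraries of the same number are pairs.

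No gene of the family passed the test. Differences were fitted with limma on log2(scaled CPM + 1) over all 12993 genes with a mean of at least 1 scaled CPM, two-sided and with Benjamini-Hochberg adjustment at 0.05. Of the 10 genes, all of which were tested, 0 were called, and the background was 0% of all genes. DESeq2 called 0 of the 10 against 0.177% of all genes, and edgeR's quasi-likelihood test called 0 of the 10 and 0% of all genes. At an unadjusted limma p under 0.05 there were 0 of the 10, against 2.96% of all genes (385 genes; 582 with the replicate number as a block and 242 without AdIGF1RKO 2). By direction this background was 1.83% with AdIGF1RKO higher and 1.13% with AdIGF1RKO lower. The groups did not separate for any of the 10, whereas they did for 8.27% of all genes, 4.41% with AdIGF1RKO higher and 3.86% with it lower. The log2 difference, AdIGF1RKO minus Flox, was positive for 8 of the 10 with a median of 0.06, against a median of -0.02 over all tested genes, of which 44.8% were positive. With the values as deposited, which move the median of all genes to -0.17, it was positive for 3 of the 10 and for 14.8% of all genes. With libraries scaled to equal sums it was positive for 8 of the 10 and for 72.3% of all genes. In bulk tissue, fewer cells of a type and less RNA per cell cannot be told apart.

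**Figure D1:**
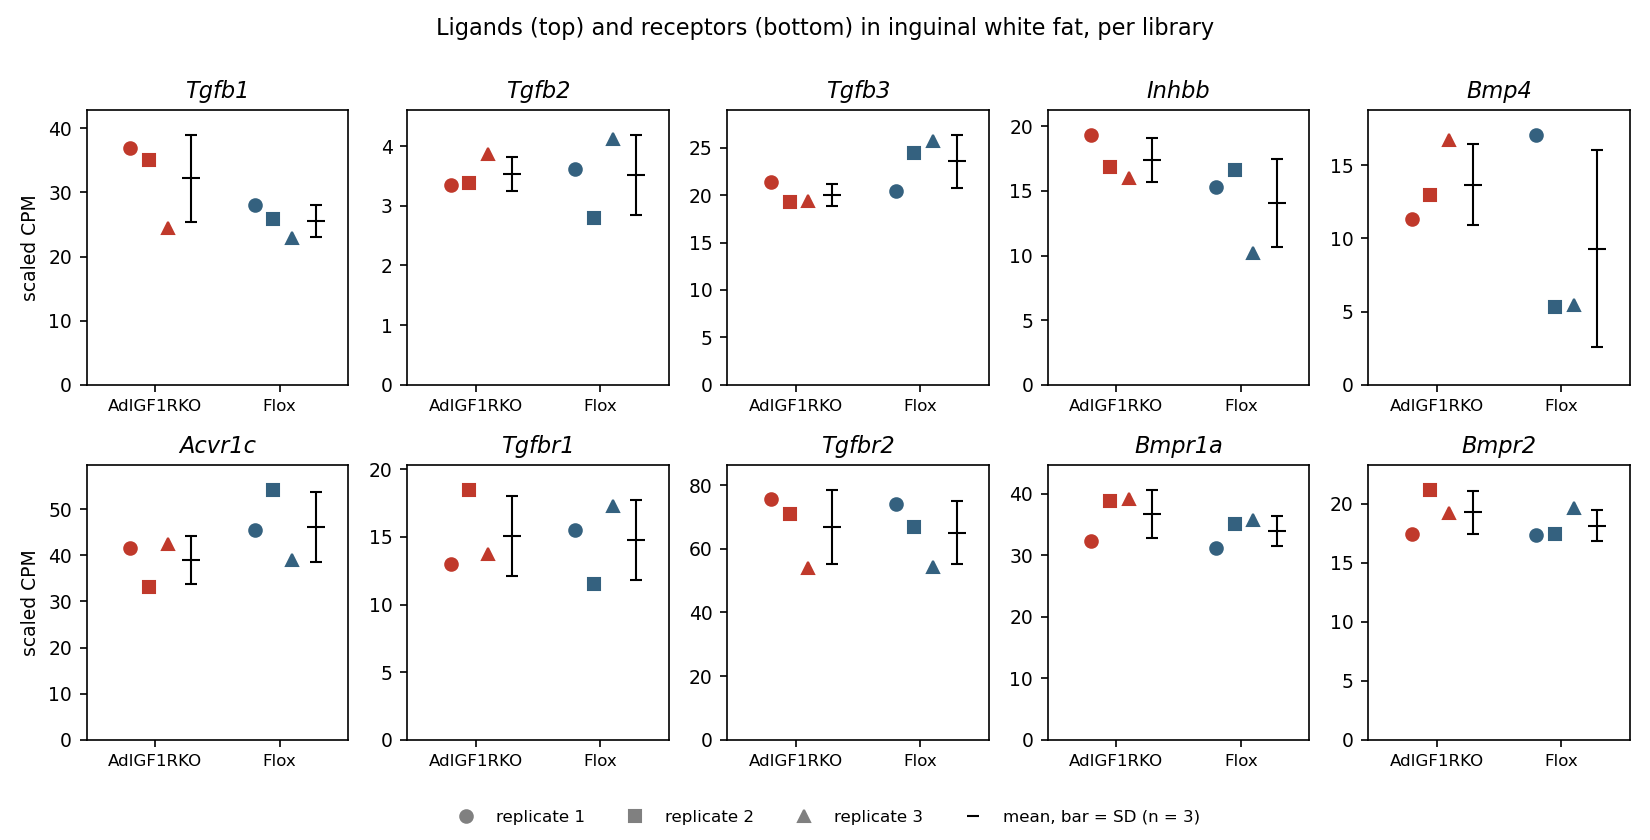
Scaled CPM (y axis) of the 5 ligand genes (top row) and 5 receptor genes (bottom row) in each library of AdIGF1RKO (left) and Flox (right), with the mean and SD of 3 libraries beside the points. The groups overlap in every panel, and Bmp4 shows Flox 1 at 17.0, far above the other Flox libraries.

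Tgfb1, the most widely expressed TGF-β isoform and made by most cell types including macrophages, had 37.0, 35.0 and 24.5 scaled CPM in AdIGF1RKO, against 28.0, 25.8 and 22.9 in Flox. AdIGF1RKO 1 and 2 exceeded every Flox library, and AdIGF1RKO 3 lay within the Flox range. Both muscle-rich libraries, AdIGF1RKO 3 and Flox 3, were the lowest of their groups. Means were 32.2 ± 6.73 in AdIGF1RKO and 25.6 ± 2.54 in Flox (SD, n = 3 each), with a log2 difference of 0.30 (standard error 0.17, 95% interval -0.12 to 0.72, limma adjusted p = 0.998). AdIGF1RKO was higher in 3 of 3 same-numbered pairs. A fit blocked by replicate number gave an unadjusted limma p of 0.0433 (adjusted p = 0.914), where 1 of the 10 genes and 4.48% of all genes had an unadjusted p under 0.05. Without both muscle-rich libraries the log2 difference was 0.41 with an unadjusted limma p of 0.0124 (adjusted p = 0.998), and 2 of the 10 genes and 2.93% of all genes then had one under 0.05. Without AdIGF1RKO 3 alone it was 0.48 with an unadjusted limma p of 0.0108 (adjusted p = 0.954), and 1 of the 10 genes and 2.47% of all genes had one under 0.05. Leaving out the only AdIGF1RKO library within the Flox range, alone or with Flox 3, separated the groups in advance, so neither is a test. Other settings lowered the Tgfb1 difference, to 0.19 without AdIGF1RKO 1, 0.23 without AdIGF1RKO 2, 0.23 without Flox 3 and 0.14 with the values as deposited. With a skeletal muscle covariate it was 0.22 with an unadjusted limma p of 0.148 (adjusted p = 0.9997). Without Flox 1 it was 0.37 with an unadjusted limma p of 0.128 (adjusted p = 0.959). Summed macrophage markers (8 of 8 in the table) ranged from 2041 to 3221 scaled CPM in AdIGF1RKO and from 1773 to 2797 in Flox. Summed endothelial markers (8 of 8) ranged from 597 to 699 in AdIGF1RKO and from 532 to 595 in Flox, without overlap. Of these 8 markers, 5 did not overlap and were higher in AdIGF1RKO, against 4.41% of all genes. As shares of reads the endothelial sums overlapped, at 0.0589% to 0.0762% in AdIGF1RKO and 0.0424% to 0.0625% in Flox. The part of these cells in the Tgfb1 values was not tested.

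Tgfb3, an isoform known from mesenchymal development and palate fusion, had 21.4, 19.3 and 19.4 scaled CPM in AdIGF1RKO, against 20.4, 24.5 and 25.7 in Flox. Flox 1 lay among the AdIGF1RKO libraries, and the other Flox libraries lay above them. The log2 difference was -0.22 (standard error 0.12, 95% interval -0.50 to 0.06) (limma adjusted p = 0.998). Without Flox 1 it was -0.31 with an unadjusted limma p of 0.0375 (adjusted p = 0.959), where 2 of the 10 genes and 2.36% of all genes had one under 0.05. Leaving out the only Flox library among the AdIGF1RKO libraries separated the groups in advance, so it is not a test. The Tgfb3 difference shrank to -0.14 without both muscle-rich libraries and to -0.10 with libraries scaled to equal sums, and was -0.38 with the values as deposited. Tgfb2, the least abundant of the 3 isoforms here, had 3.35, 3.38 and 3.86 in AdIGF1RKO, against 3.62, 2.79 and 4.12 in Flox. The Tgfb2 ranges overlapped throughout, with a log2 difference of 0.01 (standard error 0.16, 95% interval -0.36 to 0.39).

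Inhbb encodes the βB subunit that forms activin B, a ligand of ALK7 that mouse adipocytes make. It had 19.3, 16.9 and 16.0 scaled CPM in AdIGF1RKO, against 15.3, 16.6 and 10.2 in Flox. The lowest AdIGF1RKO library lay under the highest Flox library, and the muscle-rich Flox 3 was the lowest of all 6. Means were 17.4 ± 1.70 in AdIGF1RKO and 14.0 ± 3.40 in Flox (SD, n = 3 each), and the log2 difference was 0.31 (standard error 0.19, 95% interval -0.14 to 0.77, limma adjusted p = 0.998). AdIGF1RKO was higher in 3 of 3 same-numbered pairs. Without Flox 3 the log2 difference was 0.11, without both muscle-rich libraries 0.17 and with the values as deposited 0.16. Inhba, which encodes the other common activin subunit, was under the filter, at 0.609 to 1.05 scaled CPM in AdIGF1RKO and 0.767 to 0.941 in Flox.

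Acvr1c encodes ALK7, a type I receptor enriched in adipocytes. It had 41.7, 33.1 and 42.5 scaled CPM in AdIGF1RKO, against 45.6, 54.2 and 39.0 in Flox. AdIGF1RKO 2 was the lowest and Flox 2 the highest library, and the others overlapped. Means were 39.1 ± 5.21 in AdIGF1RKO and 46.3 ± 7.59 in Flox (SD, n = 3 each), with a log2 difference of -0.23 (standard error 0.16, 95% interval -0.61 to 0.14, limma adjusted p = 0.998). Without both muscle-rich libraries it was -0.41 with an unadjusted limma p of 0.0441 (adjusted p = 0.998). It was -0.12 without AdIGF1RKO 2, -0.12 without Flox 2 and -0.11 with libraries scaled to equal sums, and -0.39 with the values as deposited. Summed adipocyte markers (10 of 10 in the table) moved with it at both ends, being lowest in AdIGF1RKO 2 at 51920 scaled CPM and highest in Flox 2 at 71376, with 57813 and 59111 in the other AdIGF1RKO libraries and 57183 and 55504 in the other Flox libraries. Their part in the Acvr1c values was not tested. Pparg, Cebpa, Adrb3, Lipe and Pnpla2, genes reported to be held down through ALK7 in mouse fat, had 2 positive and 3 negative log2 differences (0 called; 4 positive with libraries scaled to equal sums and 1 with the values as deposited). Pparg, the master regulator of adipocyte differentiation, had 159, 266 and 198 scaled CPM in AdIGF1RKO and 140, 173 and 154 in Flox. Adrb3, the β3-adrenergic receptor, had 372, 250 and 303 in AdIGF1RKO and 291, 495 and 330 in Flox.

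A ratio of 2 genes within a library does not depend on how libraries are scaled, apart from the pseudocount, and 5 such ratios were compared. The ratio of Inhbb to Acvr1c was 0.463, 0.509 and 0.377 in AdIGF1RKO, against 0.336, 0.307 and 0.261 in Flox. The lowest AdIGF1RKO value exceeded the highest Flox value, the only one of the 5 ratios for which the groups separated. Inhbb leaned higher and Acvr1c lower in AdIGF1RKO, and the genes were chosen with earlier results of these data known. How often ratios of other pairs of genes separate was not computed. The mean was 0.450 ± 0.0671 in AdIGF1RKO and 0.301 ± 0.0378 in Flox (SD, n = 3 each), and the log2 ratio was higher by 0.55 in AdIGF1RKO. The two-sided exact permutation test gave p = 0.1, the smallest that 3 against 3 allows, and p = 0.5 after Benjamini-Hochberg adjustment over the 5 ratios. Leaving out each library in turn gave differences of the log2 ratio from 0.45 to 0.66, and leaving out both muscle-rich libraries gave 0.58. Because reads are not divided by gene length, the ratio compares libraries and is not the ratio of transcript numbers.

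The other ratios overlapped between the groups. Tgfb3 to Tgfb1 was 0.578, 0.550 and 0.791 in AdIGF1RKO, against 0.730, 0.950 and 1.12 in Flox. It was lower in AdIGF1RKO in 3 of 3 same-numbered pairs, with a log2 ratio difference of -0.52 (exact permutation p = 0.2, adjusted p = 0.5). Tgfb2 to Tgfb1 was likewise lower in each of the 3 pairs, with a log2 ratio difference of -0.29 (exact permutation p = 0.4, adjusted p = 0.625). Leaving out 1 library moved this value to between -0.52 (without AdIGF1RKO 3) and -0.12 (without Flox 3). Tgfbr2 to Tgfbr1 differed by 0.01 (exact permutation p = 0.9) and Bmpr2 to Bmpr1a by -0.02 (exact permutation p = 0.5) on the log2 scale. Bmpr2 to Bmpr1a was the tightest ratio, at 0.541, 0.547 and 0.491 in AdIGF1RKO and 0.556, 0.497 and 0.551 in Flox.

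**Figure D2:**
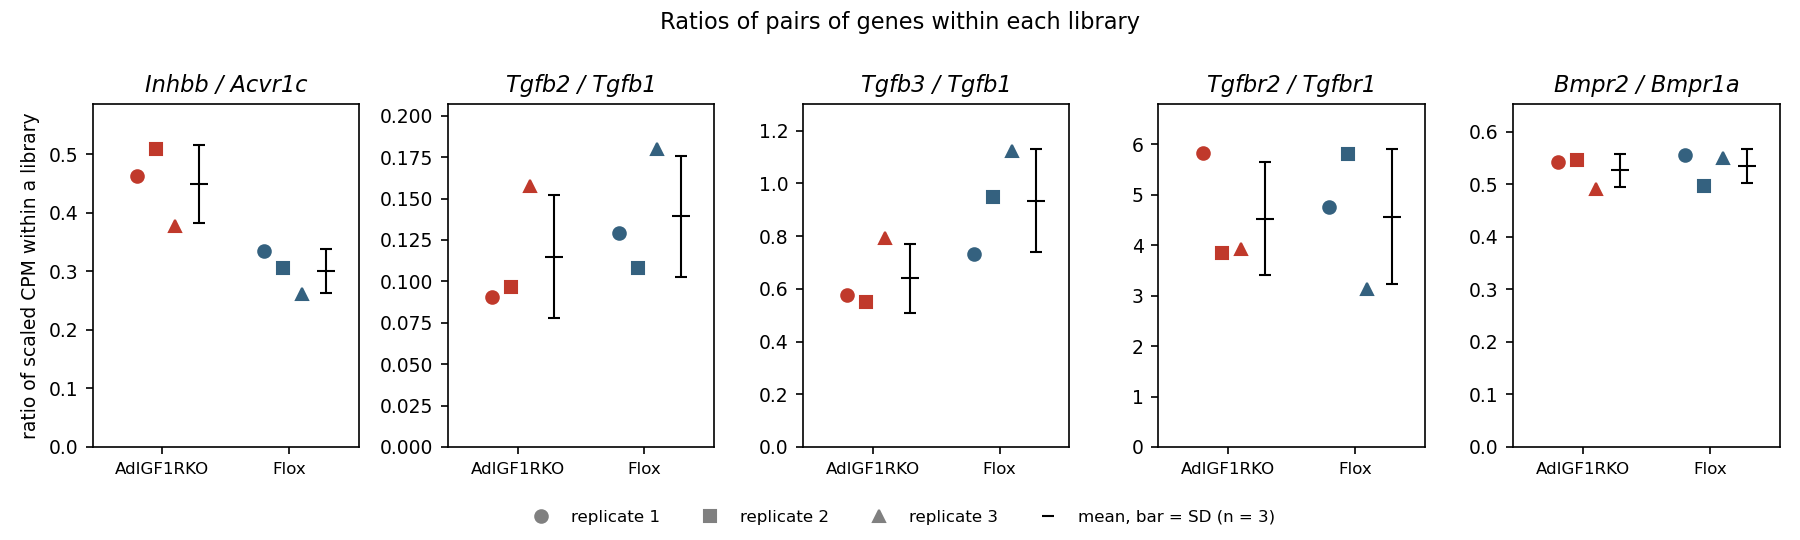
Ratio of scaled CPM of each pair of genes within a library (y axis, linear) in AdIGF1RKO (left) and Flox (right), with the mean and SD of 3 libraries beside the points. For Inhbb to Acvr1c the AdIGF1RKO libraries lie between 0.377 and 0.509 and the Flox libraries between 0.261 and 0.336, and the other 4 ratios overlap.

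Bmp4, which encodes a ligand of the BMP branch, had the largest of the 10 differences and the widest range over libraries on the log2 scale. It had 11.3, 13.0 and 16.7 scaled CPM in AdIGF1RKO, against 17.0, 5.32 and 5.47 in Flox. Flox 1 exceeded every AdIGF1RKO library, and the other Flox libraries lay under every AdIGF1RKO library. Means were 13.6 ± 2.76 in AdIGF1RKO and 9.27 ± 6.72 in Flox (SD, n = 3 each), with a log2 difference of 0.68 (standard error 0.42, 95% interval -0.33 to 1.69, limma adjusted p = 0.998). Of single libraries, leaving out Flox 1 moved this value the most. It was then 1.18 (standard error 0.19) with an unadjusted limma p of 0.00109 (adjusted p = 0.959). The groups then did not overlap, which was so for 15.7% of all genes. Leaving out the only Flox library not under AdIGF1RKO fixed this outcome in advance, so it is not a test. The log2 difference was 0.42 without Flox 2 and 0.44 without Flox 3. Without both muscle-rich libraries it was 0.30. Summed mesothelial markers (3 of 4 in the table, of which only Krt19 passed the filter) were, like Bmp4, highest in Flox 1. They had 8.03, 9.63 and 5.42 scaled CPM in AdIGF1RKO 1, 2 and 3 and 10.5, 3.15 and 3.09 in Flox 1, 2 and 3. Within AdIGF1RKO the order differed, as AdIGF1RKO 3 was lowest for these markers and highest for Bmp4. Summed lymphocyte markers were also highest in Flox 1, at 14.5, against 7.51 and 5.08 in Flox 2 and 3 and 6.53 to 9.70 in AdIGF1RKO. The epithelial marker Krt18 had 4.13 in Flox 1, against 0.328 and 0.394 in Flox 2 and 3 and 0.362 to 4.28 in AdIGF1RKO. Summed progenitor markers (10 of 10) ranged from 3743 to 4183 in AdIGF1RKO and from 3916 to 4595 in Flox. Whether any of these cell types had a part in the Bmp4 values was not tested.

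The receptors other than Acvr1c differed less. Tgfbr2, the type II receptor of TGF-β, had 75.8, 71.1 and 53.8 scaled CPM in AdIGF1RKO, against 74.0, 66.8 and 54.4 in Flox. In both groups the muscle-rich library was the lowest, and the groups covered nearly the same range. The log2 difference was 0.04 (standard error 0.17, 95% interval -0.38 to 0.45), and it turned to -0.05 with a skeletal muscle covariate. Tgfbr1, its type I partner ALK5, had 13.0, 18.5 and 13.7 in AdIGF1RKO, against 15.5, 11.5 and 17.3 in Flox, and the log2 difference was 0.03 (standard error 0.19, 95% interval -0.44 to 0.49). AdIGF1RKO 2 and Flox 2 stood at opposite ends. Bmpr1a, the type I BMP receptor ALK3, had 32.3, 38.7 and 39.1 in AdIGF1RKO, against 31.2, 35.1 and 35.7 in Flox, with a log2 difference of 0.11 (standard error 0.11, 95% interval -0.17 to 0.38). It was higher in AdIGF1RKO in 3 of 3 same-numbered pairs, by less than the range within either group. Bmpr2, the BMP type II receptor, had 17.5, 21.2 and 19.2 in AdIGF1RKO, against 17.3, 17.4 and 19.6 in Flox, with a log2 difference of 0.08 (standard error 0.11, 95% interval -0.18 to 0.35). With the values as deposited, the log2 differences of these 4 receptors were negative.

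**Figure D3:**
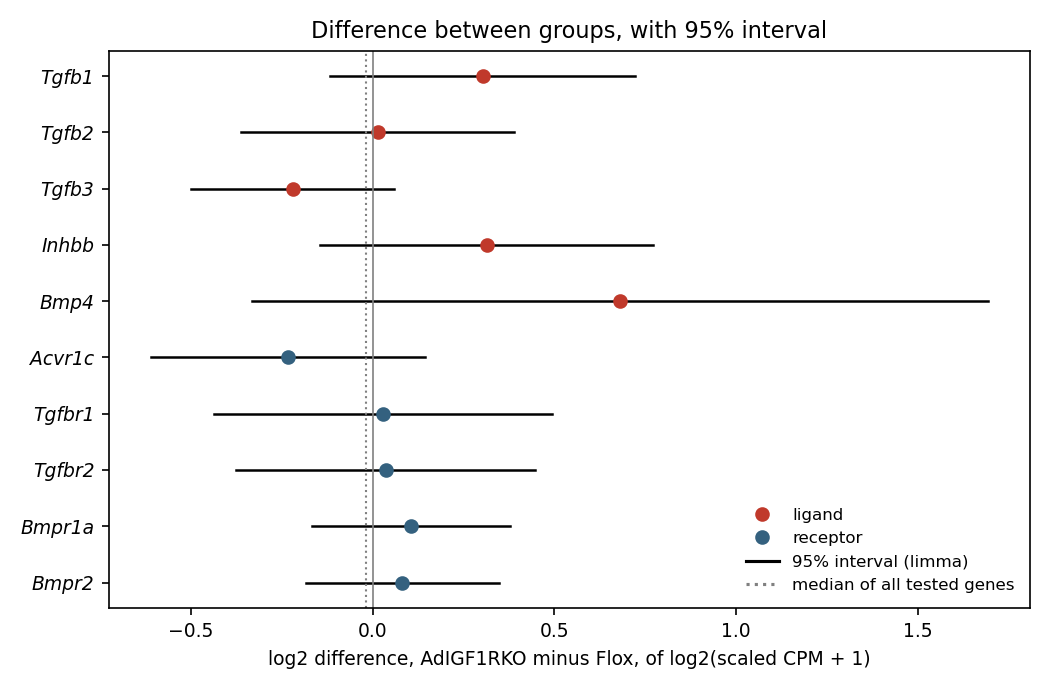
Difference between AdIGF1RKO and Flox in log2(scaled CPM + 1) for each ligand (red) and receptor (blue), with its 95% limma interval. Every interval includes 0, and that of Bmp4, from -0.33 to 1.69, is the widest.

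Set side by side by library, the 10 genes did not share one pattern. Relative to the mean of the 6 libraries, on the log2 scale, AdIGF1RKO 1 was highest for Tgfb1 (0.37) and Inhbb (0.30), while AdIGF1RKO 2 was highest for Tgfbr1 (0.31) and lowest for Acvr1c (-0.34). Flox 3 was lowest for Inhbb (-0.56) and Tgfb1 (-0.30) and highest for Tgfb3 (0.24). Bmp4 spanned the widest range, from -0.86 in Flox 2 to 0.66 in Flox 1.

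**Figure D4:**
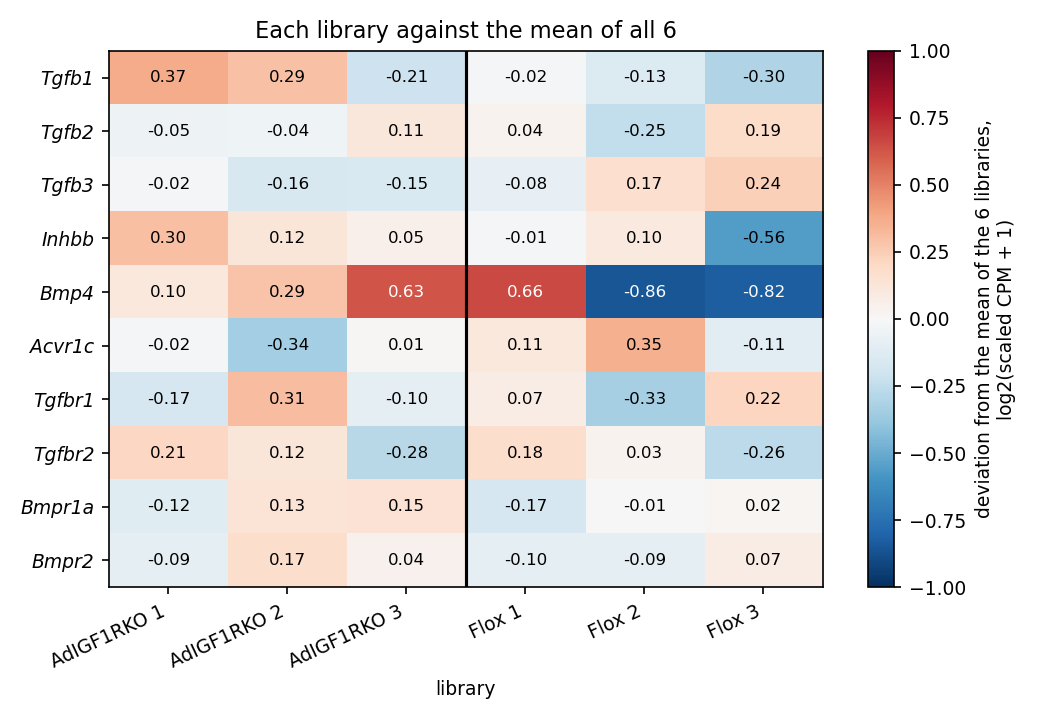
Deviation of each gene (rows) in each library (columns, AdIGF1RKO left of the line, Flox right) from its mean over the 6 libraries, in log2(scaled CPM + 1). The strongest colours belong to Bmp4, at 0.63 and 0.66 in AdIGF1RKO 3 and Flox 1 and at -0.86 and -0.82 in Flox 2 and Flox 3.

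Levels were compared between genes only after division by the total length of annotated exons (GENCODE release M21, which may differ from the annotation the authors used). Tgfb1 was highest, with 13.3 ± 2.67 scaled CPM per kilobase (SD, n = 6 libraries), and its range did not overlap that of Tgfbr2, the next, with 8.06 ± 1.18. Over both groups together, then came Tgfb3 (6.44 ± 0.803), Bmpr1a (5.85 ± 0.538), Bmp4 (5.55 ± 2.51), Acvr1c (4.65 ± 0.764) and Inhbb (3.69 ± 0.712), whose neighbours overlapped. Tgfbr1, at 2.33 ± 0.414 scaled CPM per kilobase, also overlapped Inhbb. Bmpr2, at 1.45 ± 0.121, and Tgfb2, at 0.677 ± 0.0888, were lowest and overlapped neither each other nor Tgfbr1. By group means, Bmp4 at 6.61 in AdIGF1RKO lay above Bmpr1a (6.07) and Tgfb3 (5.91), and at 4.49 in Flox it lay below Acvr1c (5.04). Single libraries did not all follow. Bmp4 was under Tgfb3 in AdIGF1RKO 1 (5.47 against 6.31) and under Bmpr1a in AdIGF1RKO 2 (6.28 against 6.405). In Flox 1 Bmp4 was above Acvr1c (8.25 against 4.97).

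Beyond the 10 genes, 9 lists held 117 other genes of the pathway, of which 98 were in the table and 89 were tested. None of the 89 was called by limma (adjusted p = 0.998 at the smallest), and 3 had an unadjusted p under 0.05, a share of 3.37% against 2.96% of all genes. Positive log2 differences numbered 48 and negative ones 41, with a median of 0.02. With the values as deposited 16 of the 89 were positive, where 14.8% of all genes were. With libraries scaled to equal sums 70 were, where 72.3% of all genes were. The counts by list below under these 2 settings stand against the same shares.

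The groups did not overlap for 9 of the 89, a share of 10.1% against 8.27% of all genes, with 6 higher and 3 lower in AdIGF1RKO. Among 11 other ligands tested, Bmp3 and Lefty1 were among these 9. Bmp3, which encodes an antagonist-like BMP, had 15.1, 14.3 and 16.7 scaled CPM in AdIGF1RKO, against 8.70, 12.6 and 5.37 in Flox. Its log2 difference was 0.79 (standard error 0.27) with an unadjusted limma p of 0.0245 (adjusted p = 0.998). Without Flox 3 it was 0.50, and without both muscle-rich libraries 0.45. Lefty1, which encodes an inhibitor of Nodal signalling, had 1.41, 1.99 and 1.78 in AdIGF1RKO, against 2.74, 2.55 and 2.65 in Flox. Its log2 difference was -0.42 (standard error 0.14) with an unadjusted limma p of 0.0239 (adjusted p = 0.998), and it rests on 109 to 194 reads a library. Of 11 other receptors and co-receptors 5 were positive and 0 called. Eng, the endothelial co-receptor endoglin, had 68.6, 57.1 and 57.0 in AdIGF1RKO, against 59.6, 58.1 and 47.9 in Flox, and Rgmb, a BMP co-receptor, had 19.5, 18.1 and 18.1 in AdIGF1RKO, against 19.8, 19.2 and 21.1 in Flox.

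Of 5 SMAD genes tested 2 were positive, 3 negative and 0 called (4 positive with libraries scaled to equal sums). Smad2, the mediator of TGF-β and activin signals, had 32.7, 33.8 and 33.3 scaled CPM in AdIGF1RKO, against 31.6, 28.8 and 28.0 in Flox, and did not overlap. Smad4, the common partner, had 32.3, 31.5 and 31.9 in AdIGF1RKO, against 33.8, 33.5 and 36.4 in Flox, and did not overlap in the other direction. Smad5, a mediator of BMP signals, had 29.4, 28.6 and 29.4 in AdIGF1RKO, against 29.5, 30.7 and 29.8 in Flox, and also did not overlap, with AdIGF1RKO 3 at 29.449 and Flox 1 at 29.455. The differences of Smad2 and Smad4 were small, at 0.17 (standard error 0.09) for Smad2 and -0.11 (standard error 0.08) for Smad4 on the log2 scale, with that of Smad2 at 0.013 with the values as deposited and that of Smad4 at 0.01 with libraries scaled to equal sums.

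Of 10 secreted antagonists tested 7 were positive and 0 called (2 positive with the values as deposited). Fstl3, which encodes a follistatin-like binder of activins, had 5.14, 4.88 and 4.55 scaled CPM in AdIGF1RKO, against 4.01, 4.49 and 3.50 in Flox, and did not overlap. Twsg1, a BMP-binding protein gene, had 52.3, 51.0 and 46.2 in AdIGF1RKO, against 55.3, 55.2 and 51.2 in Flox. Of 12 genes of latency and activation 8 were positive and 0 called (3 positive with the values as deposited). Ltbp4, which encodes a latent TGF-β binding protein of the matrix, had 94.1, 82.3 and 80.7 in AdIGF1RKO, against 77.2, 69.1 and 70.7 in Flox, without overlap. Its log2 difference was 0.24 (standard error 0.10) with an unadjusted limma p of 0.0470 (adjusted p = 0.998). Thbs1, an activator of latent TGF-β, had 18.1, 22.0 and 11.5 in AdIGF1RKO, against 13.4, 16.4 and 9.03 in Flox, and both muscle-rich libraries were the lowest of their groups.

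Target genes of both branches likewise did not pass. Of 19 TGF-β targets 11 were positive with a median log2 difference of 0.08 and 0 were called (4 positive with the values as deposited, 16 with equal sums, and 9 with a skeletal muscle covariate). Pmepa1, a target that feeds back on TGF-β receptors, had 91.0, 69.5 and 92.2 scaled CPM in AdIGF1RKO, against 75.7, 62.7 and 62.3 in Flox, and Cdkn2b, a cell cycle inhibitor gene, had 3.29, 6.69 and 6.32 in AdIGF1RKO, against 4.15, 4.88 and 2.90 in Flox. Both overlapped. Of 10 BMP targets 3 were positive with a median of -0.08 and 0 were called (6 positive with equal sums). Bambi, a decoy receptor gene, had 1.22, 1.03 and 1.32 in AdIGF1RKO, against 0.918, 0.955 and 0.725 in Flox, without overlap, and Smad7, the inhibitory SMAD, had 3.57, 2.45 and 2.74 in AdIGF1RKO, against 3.26, 4.46 and 2.90 in Flox. Of 12 intracellular inhibitors 7 were positive and 0 called (4 positive with the values as deposited), and Tgif1, a SMAD corepressor gene, had 12.5, 16.7 and 13.3 in AdIGF1RKO, against 14.0, 9.34 and 11.3 in Flox.

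**Figure D5:**
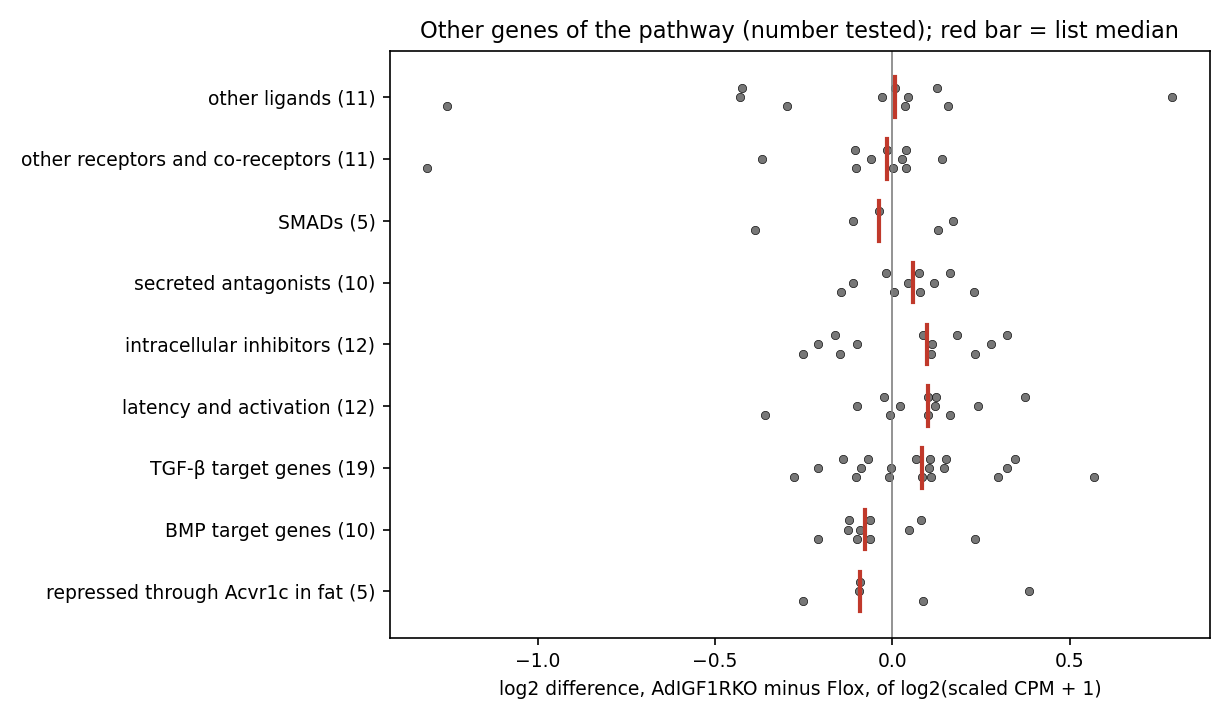
Log2 difference, AdIGF1RKO minus Flox, of each tested gene (points) in the 9 lists of other pathway genes, with the number tested in brackets and the list median as a red bar. List medians lie between -0.09 for genes repressed through Acvr1c and 0.10 for latency and activation, and no gene passed the test.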

How the data were processed

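Stranded libraries of polyadenylated RNA were sequenced, per the labels' protocols, and the submitters' processing notes name genome build GRCm39. Not given in the sources used here are the aligner, the counting tool, the annotation and the use of strand, so reads of overlapping antisense genes cannot be told apart. The authors deposited 1 table whose name says FPKM, but the deposited signal is a read count scaled per library: 100% of values were whole reads times 1 factor per library, within a rounding tolerance of 0.5. Genes at 0 in a library are not in the table. Recovered reads were rescaled by median-ratio size factors between 0.731 and 1.17, so that 1 read is worth 0.013 to 0.0207 scaled CPM. limma (version 3.58.1, R 4.3.3) was fitted with an intensity trend on log2(value + 1) after leaving out 1868 genes with a mean under 1, a scale that understates changes of low genes. edgeR (version 4.0.16) and DESeq2 (version 1.42.0) were run on the recovered reads as alternatives, and the fits were tested on simulated data. The simulated reads had a common dispersion for all genes and no uneven skeletal muscle RNA, so they do not measure power in these libraries. The titles speak of mice, and nothing in the labels says that libraries repeat an animal.

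The genes and lists were chosen with earlier results of these data known, and the genes named from each list are the pair with the smallest unadjusted p, beside Inhba and Smad5, which were chosen after their values were seen. Groups share replicate numbers 1 to 3. Same-numbered libraries deviated together from their group means (correlation across genes 0.35, 0.35 and 0.83), but so did AdIGF1RKO 1 with Flox 2 (0.70) and AdIGF1RKO 2 with Flox 1 (0.33). The main limma fit and the exact tests were unpaired. By number, AdIGF1RKO was higher in 3 of 3 pairs for Tgfb1, Bmpr1a and Inhbb and in 2 of 3 for Tgfbr2, Bmp4 and Bmpr2. It was higher in 1 of 3 for Tgfb2, Tgfb3, Tgfbr1 and Acvr1c. The share of all genes at 3 of 3 was not computed. A fit with the number as a block was run as an alternative. The labels do not state a pairing by number, and these correlations do not single it out. AdIGF1RKO 1 correlated more with Flox 2 (0.70) than with Flox 1 (0.35), and the pair at 0.83 holds both muscle-rich libraries.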

Additional observations from a re-analysis of the deposited data

How the results depend on the processing

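limma called 0 genes in every setting run except without Flox 1, where it called 1 gene. DESeq2 called 23 and edgeR 0. The 10 genes of the family were called in none of the settings, and with the replicate number as a block (0 of the 10 and 0 of all genes called) no call changed. Tgfb1, Tgfb3, Bmp4, Acvr1c and Inhbb kept the sign of their difference under every alternative. With the values as deposited the log2 difference turned to -0.11 for Tgfb2, -0.13 for Tgfbr1, -0.13 for Tgfbr2, -0.054 for Bmpr1a, -0.075 for Bmpr2 and -0.021 for Eng, where the median of all genes was -0.17. With libraries scaled to equal sums it turned to 0.01 for each of Rgmb, Smad4 and Twsg1 (0.0132, 0.0095 and 0.0091), and with the muscle covariate to -0.054 for Tgfbr2. Leaving out each library in turn gave ranges from -0.10 to 0.11 for Tgfb2, from -0.13 to 0.14 for Tgfbr1 and from -0.086 to 0.18 for Tgfbr2. The same gave a log2 ratio of Tgfbr2 to Tgfbr1 from -0.23 to 0.19 and of Bmpr2 to Bmpr1a from -0.073 to 0.024. Without both muscle-rich libraries these ratios were -0.14 and 0.045. The cause of these turns was not tested. With 3 libraries a group, exact tests cannot reach 0.05 and the interval of Bmp4, from -0.33 to 1.69, was the widest of the family. Tgfb2 had no value with a filter at a mean of 5.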

Other observations

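Some pathway genes followed the skeletal muscle RNA of the libraries, and these were chosen after their values were seen. Mstn, which encodes the muscle-derived ligand myostatin, had 1.22, 1.13 and 14.6 scaled CPM in AdIGF1RKO and 5.76, 1.58 and 56.5 in Flox. Hjv, the BMP co-receptor hemojuvelin that skeletal muscle is known to express, had 0.622, 5.57 and 87.4 in AdIGF1RKO and 18.5, 1.87 and 256 in Flox. Smad3 had 16.1, 12.9 and 25.4 in AdIGF1RKO and 18.5, 14.1 and 46.8 in Flox. In each the muscle-rich libraries AdIGF1RKO 3 and Flox 3 were the highest of their groups, and none passed the limma test (adjusted p = 0.998). Of 2 markers of brown fat, Ucp1 was not analysed here, and Cidea had 48.7, 107 and 28.0 scaled CPM in AdIGF1RKO and 107, 42.5 and 75.2 in Flox. Lymphocyte markers summed to 6.53 to 9.70 scaled CPM in AdIGF1RKO and 5.08 to 14.5 in Flox, mural markers to 523 to 652 in AdIGF1RKO and 437 to 550 in Flox, and markers of lipid-laden macrophages to 158, 601 and 172 in AdIGF1RKO 1, 2 and 3 and 156 to 173 in Flox, so that AdIGF1RKO 2 alone stood above Flox. The epithelial marker Krt18, the only 1 of 5 in the table, had 0.362 to 4.28 in AdIGF1RKO and 0.328 to 4.13 in Flox.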
